A study of Mus musculus with 6 samples.

Results

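The genes described here encode enzymes that add or remove methyl and acetyl groups on histones, together with the enzymes that methylate DNA or oxidise methylated cytosine. They were taken from the count table by name: every gene whose name begins with Kdm, Kmt2, Kmt5, Setd, Hdac, Sirt, Kat or Prmt followed by a digit, and 10 further genes, Ezh1, Ezh2, Suz12, Eed, Dnmt1, Dnmt3a, Dnmt3b, Tet1, Tet2 and Tet3. The rule used no measured value. It found 80 of the 34718 genes in the table, of which 72 had enough counts to be tested and 8 did not. The RNA came from Hepa1-6, a mouse hepatocellular carcinoma cell line grown in culture, in 2 groups of 3 libraries: cells labelled shNC, the control, and cells labelled shZfp207, in which a short hairpin was directed at Zfp207. The labels give the genotypes only as control and knockdown, without a time after hairpin delivery or the number of hairpins, so effects of a hairpin other than loss of Zfp207 cannot be told apart. They also tag the tissue as tumor although the growth protocol describes a culture.

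Histone lysine methyltransferases write marks whose effect depends on the residue: the KMT2 and SETD1 enzymes methylate H3K4 at promoters and enhancers, and the polycomb repressive complex PRC2 methylates H3K27 at silenced genes. KDM enzymes erase lysine methylation, KAT enzymes acetylate histones and many other proteins, and the HDAC and sirtuin families remove acetyl groups, the sirtuins at the expense of NAD. DNMT enzymes methylate cytosine in DNA and TET enzymes oxidise it. Liver and hepatoma cells express most of these families, and the sirtuins in particular are studied there for their part in metabolism.

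The libraries held 11933736 to 16248346 counts in genes. Zfp207, which encodes a zinc finger protein that binds a spindle checkpoint protein, had 139.8, 198.6 and 216.2 counts per 1000000 counts (CPM, scaled between libraries by TMM) in the controls, given here and throughout in the order of replicates 1 to 3, against 48.0, 48.5 and 47.3 after knockdown. It fell by 1.95 on the log2 scale (SE 0.17, adjusted p = 0.00236 in edgeR). Control replicate 1 stood apart: mitochondrial genes took 10.5% of its counts, against 2.67 to 2.89% in the other controls and 5.6 to 6.0% in the knockdown libraries. Of the 10 hepatocyte markers, which summed to 3167 to 3709 FPKM in the controls and 3206 to 3260 in the knockdown libraries, Alb lay at 204 to 469 FPKM in the controls and 874 to 926 in the knockdown, Afp at 173 to 219 and 415 to 458, Apob at 2.22 to 10.1 and 15.6 to 16.7, and Krt18 at 1874 to 2141 and 1243 to 1361. Krt8 lay at 678 to 700 FPKM in the controls and 417 to 444 in the knockdown. For Trf the values were 142 to 171 and 102 to 104. Hnf4a lay at 41.1 to 45.9 FPKM over all libraries. Apoa1 lay at 0.952 to 1.24 FPKM in the controls and 1.84 to 2.34 in the knockdown, and Ttr and Serpina1a were at or near 0. The 6 leukocyte markers summed to 6.18 to 8.21 FPKM in the controls and 4.93 to 6.06 in the knockdown libraries, nearly all of it Cd68, while Cd3e and Cd8a were at 0 and Ptprc and Adgre1 at or near 0. The 4 endothelial markers summed to at most 0.238 FPKM. Of the 5 fibroblast markers, Col1a1, Col1a2 and Lum were near 0, Pdgfra lay at 1.09 to 1.83 FPKM and Dcn reached 967 to 1092 FPKM in the controls and 1284 to 1324 in the knockdown libraries. The part of these differences in the results was not tested.

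Of the 72 tested enzyme genes, 20 passed an adjusted p of 0.05, 12 of them higher and 8 lower in the knockdown. Of the 7 genes for H3K4 methyltransferases 5 rose, as did 4 of the 7 for other SET domain proteins, led by Kmt2d at 2.69-fold and Kmt2a at 2.62-fold, and 4 of 7 sirtuin genes and 3 of 7 class II or IV deacetylase genes fell, led by Hdac11 at 4.46-fold lower. The called share was 27.8% of the members, against 20.6% of all 11975 genes tested. For higher genes it was 16.7% against 9.92%, and for lower genes 11.1% against 10.7%, so the share of lower members lay near the background. At an unadjusted p under 0.05 there were 30 of the 72 members, against 4296 of all 11975 genes (35.9%). At least a 2-fold change was called for 7 of the 72 members, against 702 of all 11975 genes (5.86%). Of these 7 members 4 were higher (Kmt2d, Kmt2a, Kmt2c and Setd6) and 3 lower (Hdac11, Hdac9 and Hdac10). The groups did not overlap for 34 members, 47.2% against 44.7% of all genes. The median log2 fold change was 0.12 over the members and -0.03 over all genes. No source used here says whether replicates came from separate cultures. The p-values therefore reflect the spread between these libraries alone, which may be technical, and in such bulk RNA fewer cells of a kind and less RNA per cell cannot be told apart.

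These counts depended on single libraries. Without control replicate 1, 40 members were called (22 higher and 18 lower, with 52.1% of all genes called, 26.1% in each direction), and all 20 of the first calls were among them with the same sign. Of the 20 calls, 14 were kept without control replicate 2, 12 without control replicate 3, and 9, 8 and 7 without knockdown replicates 1, 2 and 3. In the same order these fits called 12.5, 10.4, 5.93, 4.91 and 4.37% of all genes. The fit without control replicate 1 also had 1 library fewer, and the cause of these differences was not tested. The 7 genes called in every one of these 6 fits were Kmt2d, Kmt2a, Setd5, Setd6, Setd7, Hdac11 and Sirt1.

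**Figure D1:**
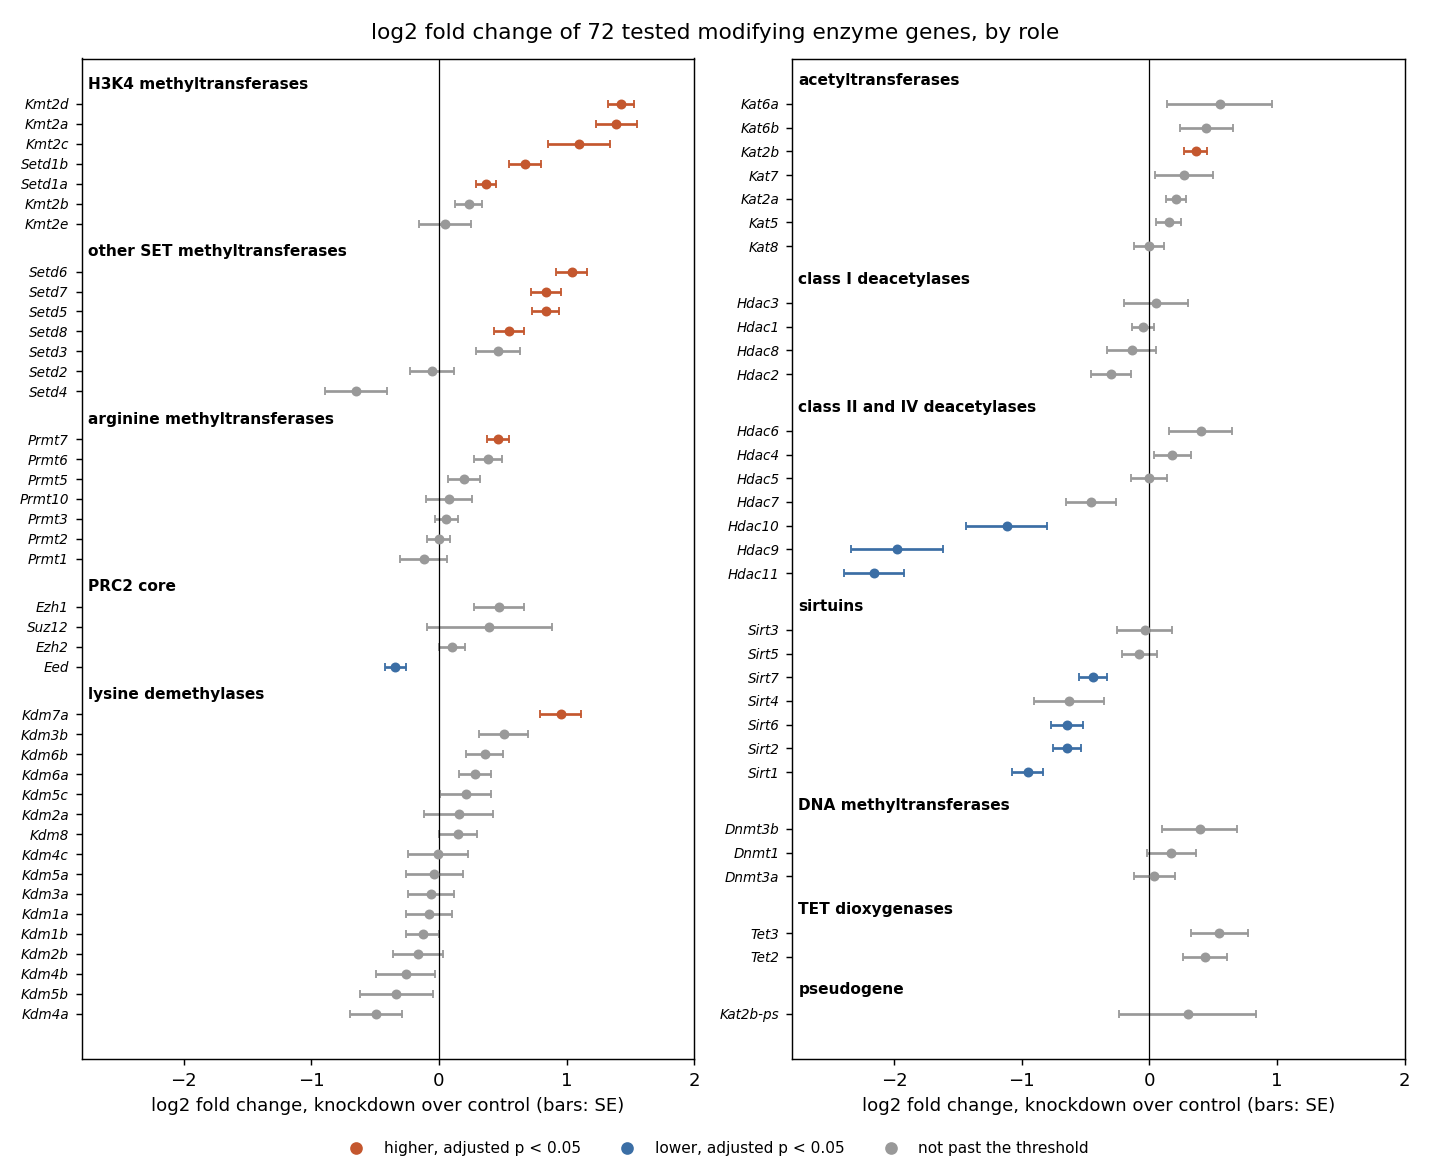
Log2 fold change, knockdown over control, of the 72 tested enzyme genes grouped by role, with bars of 1 SE with the genes past an adjusted p of 0.05 in edgeR in orange where higher and blue where lower and the others in grey. The H3K4 and other SET methyltransferase groups hold 9 of the 12 higher genes, and all 8 lower genes are deacetylases, sirtuins or Eed.

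Of the 7 genes for H3K4 methyltransferases 5 rose and none fell, and their median log2 fold change was 0.68. Over all genes tested 9.92% rose and 10.7% fell. KMT2D, the enzyme of enhancer H3K4 monomethylation, showed the smallest p of all members. Kmt2d had 93.7, 81.9 and 92.3 CPM in the controls and 258.9, 229.3 and 233.0 in the knockdown libraries. Every knockdown library lay far above every control library, and control replicate 1 was no outlier for this gene. Its log2 fold change was 1.43 (SE 0.10, adjusted p = 0.0015 in edgeR).

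Kmt2a, which encodes MLL1, a regulator of Hox genes that partners with menin, had 53.5, 77.5 and 75.6 CPM in the controls and 166.5, 193.9 and 180.9 in the knockdown libraries. The groups were again well separated, with control replicate 1 lowest. Kmt2a rose by 1.39 on the log2 scale (SE 0.16, adjusted p = 0.0042 in edgeR). Kmt2c, the paralog of Kmt2d, had 13.9, 25.8 and 26.6 CPM in the controls and 44.6, 46.5 and 50.9 in the knockdown libraries. The groups did not overlap, but control replicate 1 lay well below the other controls. Its log2 fold change of 1.09 (SE 0.243, adjusted p = 0.0243 in edgeR) was 0.85 without control replicate 1, and the call was lost without any single knockdown replicate.

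The RefSeq start regions of these 3 genes are shown because the genes rose together and had the 3 largest increases among the members. The windows are on build GRCm38.p6, all on the minus strand, and read 5′ to 3′: Kmt2a at chr9:44881297-44881539, Kmt2c at chr5:25498784-25499033 and Kmt2d at chr15:98871206-98871455. Capitals mark GGGCGG, the letters of the GC box, on either strand (CCGCCC on the strand shown), with overlapping matches run together.
Kmt2a: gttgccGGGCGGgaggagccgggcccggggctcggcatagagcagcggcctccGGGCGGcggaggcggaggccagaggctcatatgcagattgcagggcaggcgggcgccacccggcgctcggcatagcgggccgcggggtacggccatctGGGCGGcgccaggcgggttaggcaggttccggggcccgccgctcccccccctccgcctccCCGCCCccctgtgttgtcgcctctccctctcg
Kmt2c: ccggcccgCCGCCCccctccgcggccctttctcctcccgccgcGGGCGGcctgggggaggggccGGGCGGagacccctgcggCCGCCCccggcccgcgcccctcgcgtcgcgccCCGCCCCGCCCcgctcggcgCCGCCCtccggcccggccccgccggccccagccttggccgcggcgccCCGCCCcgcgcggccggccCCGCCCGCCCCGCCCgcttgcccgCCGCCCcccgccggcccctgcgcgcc
Kmt2d: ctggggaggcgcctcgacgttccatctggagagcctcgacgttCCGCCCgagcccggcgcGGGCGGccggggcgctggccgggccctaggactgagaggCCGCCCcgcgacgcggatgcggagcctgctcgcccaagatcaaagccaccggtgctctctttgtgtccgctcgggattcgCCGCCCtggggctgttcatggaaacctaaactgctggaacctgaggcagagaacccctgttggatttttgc
The windows held 4, 12 and 4 matches and 77.4, 91.6 and 67.6% GC. Searched in windows from 250 bases before to 50 after the start, on both strands, GGGCGG was present in 62.1% of 87 windows of 63 matched members and in 35.7% of all 32851 windows. The share was 64.3% of 14 windows for the genes that rose, 55.6% of 9 for those that fell and 61.0% of 59 for tested members that were not called. CCAAT was found in 42.5% of member windows and 37.4% of all windows, CACGTG in 9.2 and 7.15%, TTGGCGC in 3.45 and 2.45%, and CATGCGC in 5.75 and 3.91%. All windows came from 27025 genes, tested here or not, so their shares were not matched to the members for expression. A match is only a match of letters.

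SETD1A and SETD1B, the catalytic subunits of the complexes that lay down most H3K4 trimethylation, rose less. Setd1b had 22.9, 29.6 and 26.5 CPM in the controls and 44.8, 40.7 and 40.8 in the knockdown libraries, which did not overlap (log2 fold change 0.68 with an SE of 0.126, adjusted p = 0.0142 in edgeR). Setd1a had 65.8, 67.2 and 64.0 CPM against 87.3, 85.2 and 81.8, a tight and separated pair of groups (log2 fold change 0.37 with an SE of 0.0816, adjusted p = 0.0241 in edgeR). It was the most abundant of the 7 per length, at 8.19 ± 0.188 FPKM (SD, n = 3) in the controls and 10.5 ± 0.396 in the knockdown. Up to 51.85% of its exonic length is shared with the predicted gene Gm49388 on the same strand, so its count is uncertain. The Setd1a call was lost without each library other than control replicate 1. That of Setd1b was lost without control replicate 3 or any single knockdown replicate. Kmt2b (log2 fold change 0.23, adjusted p = 0.164 in edgeR) and Kmt2e (0.05, 0.893), whose product has little methyltransferase activity, did not pass the test. The group's 5 calls became 6 without control replicate 1, where Kmt2b joined at 0.31. They became 4, 3, 2, 2 and 2 without control replicates 2 and 3 and knockdown replicates 1, 2 and 3. In the same order these fits called 52.1, 12.5, 10.4, 5.93, 4.91 and 4.37% of all genes.

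**Figure D2:**
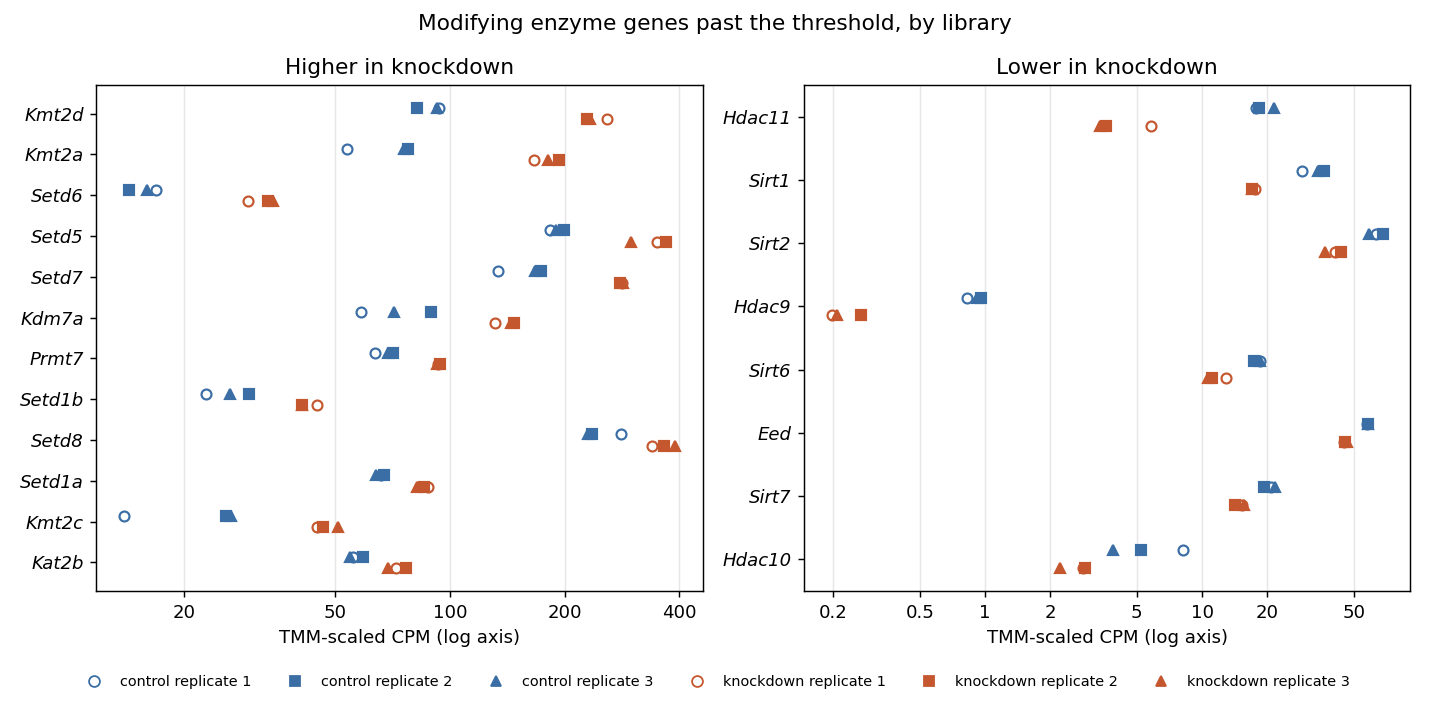
TMM-scaled CPM (log axis) in each of the 6 libraries for the 12 enzyme genes that rose, on the left, and the 8 that fell, on the right, with a separate marker shape for each replicate. The 2 groups do not overlap for any of the 20, and control replicate 1 sits lowest for Kmt2a, Kmt2c and Setd7 and highest for Hdac10.

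Of the 7 genes for other SET domain proteins, 4 rose, none fell and the median log2 fold change was 0.55. Over all genes tested 9.92% rose and 10.7% fell. Setd6, whose product monomethylates the RelA subunit of NF-kB, had 16.9, 14.3 and 16.0 CPM in the controls and 29.4, 33.2 and 34.2 in the knockdown libraries. It rose 2.05-fold with no overlap (log2 fold change 1.04 with an SE of 0.121, adjusted p = 0.0043 in edgeR). Setd7, whose product monomethylates H3K4 and non-histone proteins such as p53, had 133.9, 173.0 and 167.5 CPM against 283.2, 279.3 and 285.6. The knockdown libraries were almost alike, and control replicate 1 was the lowest (log2 fold change 0.84 with an SE of 0.118, adjusted p = 0.0066 in edgeR). Setd5, a chromatin protein with a SET domain that is mutated in intellectual disability, had 183.3, 198.7 and 189.5 CPM against 350.2, 369.5 and 299.6. All its knockdown libraries exceeded all controls (log2 fold change 0.83 with an SE of 0.108, adjusted p = 0.0056 in edgeR).

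Setd8, named Kmt5a in the annotation, encodes the enzyme that monomethylates H4K20 and was the most abundant of this group per length, at 25.3 ± 3.02 FPKM in the controls and 36.7 ± 2.43 in the knockdown (SD, n = 3). It had 281.4, 235.8 and 230.6 CPM in the controls and 338.7, 365.5 and 390.7 in the knockdown libraries. Here control replicate 1 was the highest control and still lay below every knockdown library. The log2 fold change was 0.55 (SE 0.115, adjusted p = 0.0204 in edgeR), and the call was kept only where control replicate 1 was the library left out. Setd3, which encodes the actin histidine methyltransferase, had a log2 fold change of 0.46 (adjusted p = 0.0993 in edgeR), and Setd2, whose product trimethylates H3K36, one of -0.05 (0.846). Setd4 had the largest change among tested members that were not called, with 4.39, 2.82 and 3.56 CPM in the controls and 2.23, 2.47 and 2.14 in the knockdown libraries (log2 fold change -0.65 with an SE of 0.244, adjusted p = 0.107 in edgeR). The group held 5 calls without control replicate 1, with Setd2 lower, and 3 without each of the other 5 libraries. Of all genes, 52.1% were called without control replicate 1 and 4.37 to 12.5% without 1 of the other 5.

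Among the 7 tested arginine methyltransferase genes, 1 rose, none fell and the median log2 fold change was 0.08. Over all genes tested 9.92% rose and 10.7% fell. Prmt7, which encodes an enzyme that only monomethylates arginine, had 63.4, 70.9 and 68.6 CPM in the controls and 93.0, 93.9 and 92.3 in the knockdown libraries. The groups did not overlap (log2 fold change 0.46 with an SE of 0.0853, adjusted p = 0.0141 in edgeR). Genes on the opposite strand cover up to 4.38% of its exonic length. Prmt1, the main source of asymmetric dimethylarginine and the most abundant of the family at 29.96 ± 7.20 FPKM in the controls and 27.4 ± 0.604 in the knockdown (SD, n = 3), had 29.8, 49.6 and 43.0 CPM against 38.2, 37.5 and 37.0. Its knockdown libraries lay between the control values (log2 fold change -0.12 with an SE of 0.185, adjusted p = 0.682 in edgeR). Without control replicate 1 the value was -0.30, and it was called, while without control replicate 2 it was 0.04. Prmt5, the main source of symmetric dimethylarginine (0.20), and Prmt6 (0.39, adjusted p = 0.0526 in edgeR) did not pass, nor did Prmt2, Prmt3 or Prmt10, which lay within 0.08 of 0. The family's single call became 3 without control replicate 1 and stayed 1 without control replicate 2. It was absent in the fits that left out control replicate 3 or 1 of the knockdown replicates. Of all genes, 52.1% were called without control replicate 1, 12.5% without control replicate 2 and 4.37 to 10.4% in the remaining fits.

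The 4 core genes of PRC2 gave 1 call. Eed encodes the subunit that binds trimethylated H3K27 and stabilises the complex. It had 57.6, 58.0 and 58.0 CPM in the controls and 45.0, 45.6 and 46.3 in the knockdown libraries. The difference was small but the libraries of each group were nearly alike (log2 fold change -0.34 with an SE of 0.0815, adjusted p = 0.0302 in edgeR). It was the most abundant of the 4 per length, at 23.0 ± 0.112 FPKM in the controls, and up to 6.82% of its exonic length overlaps a gene on the opposite strand. Its call was kept without control replicate 1 and lost without each of the other 5 libraries.

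The catalytic subunits did not pass. Ezh2 had a log2 fold change of 0.10 (SE 0.101, adjusted p = 0.519 in edgeR) and Ezh1 of 0.47 (SE 0.197, adjusted p = 0.138 in edgeR). Ezh1 had 37.7, 63.7 and 59.9 CPM in the controls and 71.3, 78.6 and 73.5 in the knockdown libraries, which did not overlap. Without control replicate 1 it was called at 0.27 (adjusted p = 0.0129 in edgeR), in a fit that called 52.1% of all genes. Suz12, the scaffold subunit, had 40.8, 143.2 and 137.9 CPM in the controls and 84.4, 172.9 and 166.3 in the knockdown libraries. Both replicates numbered 1 were far below the others of their group, and the groups overlapped (adjusted p = 0.607 in edgeR). The ratio of Ezh2 to Ezh1 counts, which does not depend on library scaling, was 2.31, 1.63 and 1.57 in the controls and 1.44, 1.22 and 1.46 in the knockdown libraries. All 3 knockdown ratios were below all controls, with a difference of -0.40 on the log2 scale (exact two-sided permutation p = 0.1, the smallest that 3 against 3 allows, adjusted p = 0.267 over 8 pairs).

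The lysine demethylase genes, 16 tested of 20 named Kdm, gave 1 call. Kdm7a, whose product removes methyl groups from H3K9 and H3K27, had 58.2, 89.0 and 71.2 CPM in the controls and 131.6, 147.2 and 144.9 in the knockdown libraries. Every knockdown library exceeded every control (log2 fold change 0.96 with an SE of 0.161, adjusted p = 0.0105 in edgeR), and the call was lost without knockdown replicate 2 or 3. Kdm3b, an H3K9 demethylase and the most abundant of the family over all 6 libraries, at 13.1 ± 3.36 FPKM in the controls and 18.6 ± 0.340 in the knockdown (SD, n = 3), had 66.2, 113.6 and 100.8 CPM against 132.1, 135.9 and 131.1. The groups did not overlap, yet the controls were spread widely and it did not pass (log2 fold change 0.51 with an SE of 0.193, adjusted p = 0.109 in edgeR). Up to 24.6% of the exonic length of Kdm3b overlaps a gene on the opposite strand. The family's median log2 fold change was -0.02.

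Without control replicate 1 the same family gave 10 calls of 16 tested (62.5%), 3 higher and 7 lower, with a median of -0.23. That fit called 52.1% of all genes, 26.1% in each direction. The 7 lower genes were Kdm1a, Kdm2b, Kdm4a, Kdm4b, Kdm4c, Kdm5a and Kdm5b, named here after their values were seen. The family's median was 0.13 without control replicate 2 and 0.09 without control replicate 3, with 1 call in each. Leaving out some other library gave log2 fold changes up to 0.03 for Kdm1a, 0.005 for Kdm2b, 0.17 for Kdm4c and 0.10 for Kdm5a. Kdm4a, Kdm4b and Kdm5b stayed lower in every such fit. Kdm5b, an H3K4 demethylase, had 142.9, 309.1 and 315.2 CPM in the controls and 196.9, 210.3 and 201.8 in the knockdown libraries. The knockdown libraries agreed closely and lay between control replicate 1 and the other controls. Its log2 fold change was -0.33 over all libraries (adjusted p = 0.448 in edgeR) and -0.62 without control replicate 1 (adjusted p = 5.4e-05). Kdm4a, an H3K9 and H3K36 demethylase, had 86.2, 115.1 and 154.0 CPM against 87.1, 81.0 and 84.3 (log2 fold change -0.49 over all libraries and -0.68 without control replicate 1). Its control values were spread widely, and control replicate 1 fell among the knockdown libraries. Kdm1a, which encodes the flavin-dependent H3K4 demethylase LSD1, had 73.0, 114.6 and 115.1 CPM against 93.2, 99.2 and 95.3 (-0.07 and -0.26). The part of control replicate 1 in these values was not tested beyond leaving it out. Kdm2a showed another pattern, with 137.6, 198.8 and 203.7 CPM in the controls and 234.6, 128.1 and 238.3 in the knockdown libraries, where knockdown replicate 2 was the lowest of all.

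**Figure D3:**
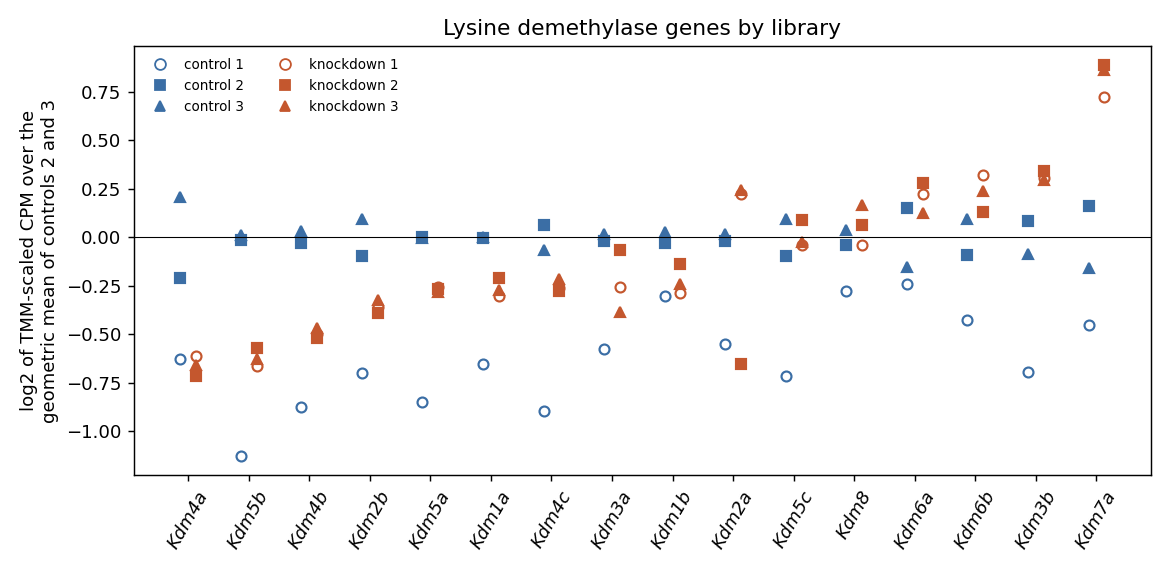
Log2 of the TMM-scaled CPM of each tested lysine demethylase gene in the 6 libraries, relative to the geometric mean of control replicates 2 and 3, with controls in blue and knockdown libraries in orange. For Kdm5a, Kdm5b and Kdm4b the 3 knockdown libraries lie above control replicate 1 and below the other controls, whereas for Kdm7a they lie above all 3 controls.

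Among the 7 genes for lysine acetyltransferases 1 rose, none fell and the median log2 fold change was 0.27. Over all genes tested 9.92% rose and 10.7% fell. Kat2b, which encodes PCAF, a coactivator enzyme, had 55.5, 59.2 and 54.5 CPM in the controls and 72.0, 76.6 and 68.7 in the knockdown libraries. The groups did not overlap (log2 fold change 0.36 with an SE of 0.0905, adjusted p = 0.0349 in edgeR), but its call was lost under upper-quartile scaling and without each library other than control replicate 1. Kat5, which encodes TIP60, was the most abundant at 25.9 ± 1.95 FPKM in the controls and 28.5 ± 0.817 in the knockdown (SD, n = 3). It had 52.2, 55.8 and 47.7 CPM against 55.7, 57.6 and 59.6, which overlapped (log2 fold change 0.15 with an SE of 0.0970, adjusted p = 0.308 in edgeR). Up to 12.14% of the exonic length of Kat5 overlaps a gene on the opposite strand. Kat6a, the MOZ gene, had 38.3 CPM in control replicate 1 against 126.7 and 127.8 in the other controls and 140.0, 148.7 and 140.7 in the knockdown libraries. Only control replicate 1 was low (adjusted p = 0.385 in edgeR). Without that library Kat2a, Kat2b and Kat6a were called, at log2 fold changes of 0.22, 0.35 and 0.17.

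None of the 4 genes for class I deacetylases passed in edgeR, 0 had an unadjusted p under 0.05, and DESeq2, voom and each fit without 1 library also called 0. Hdac2, the most abundant at 24.7 ± 5.45 FPKM in the controls and 19.8 ± 0.874 in the knockdown (SD, n = 3), had 174.8, 126.4 and 120.2 CPM against 109.2, 112.4 and 120.0. Its knockdown libraries were all below the controls, the nearest by a small margin (log2 fold change -0.30 with an SE of 0.155, adjusted p = 0.213 in edgeR). Hdac1 (-0.05), Hdac3 (0.05) and Hdac8 (-0.14) had smaller differences.

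Of the 7 class II and IV deacetylase genes 3 fell, none rose and the median log2 fold change was -0.46. Over all genes tested 10.7% fell and 9.92% rose. Hdac11, the only class IV enzyme, removes long fatty acyl groups as well as acetyl groups. It had 17.7, 18.2 and 21.4 CPM in the controls and 5.83, 3.61 and 3.38 in the knockdown libraries. Even the highest knockdown library was far below the lowest control (log2 fold change -2.16 with an SE of 0.234, adjusted p = 0.0037 in edgeR). Genes on the opposite strand overlap up to 17.93% of its exonic length, and no source used here states whether strand was used in the counting. Hdac9, a class IIa enzyme that binds MEF2 factors, had only 10, 14 and 15 counts in the controls and 3, 4 and 3 in the knockdown libraries. The groups were separate at these low counts, which are near the 3 counts that a count of 0 allows (log2 fold change -1.98 with an SE of 0.359, adjusted p = 0.0133 in edgeR). The Hdac9 call was lost without any single knockdown replicate.

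Hdac10, a polyamine deacetylase, had 8.20, 5.22 and 3.87 CPM in the controls and 2.82, 2.87 and 2.21 in the knockdown libraries. The controls were spread widely with control replicate 1 highest (log2 fold change -1.12 with an SE of 0.318, adjusted p = 0.0499 in edgeR). The value was -0.78 without that library. The call was lost without control replicate 2 or any single knockdown replicate. Hdac6, a cytoplasmic tubulin deacetylase and the most abundant of these genes at 13.9 ± 4.54 FPKM in the controls and 18.2 ± 0.602 in the knockdown (SD, n = 3), had 83.1, 161.8 and 159.7 CPM against 183.9, 174.8 and 176.2. The groups did not overlap, but control replicate 1 was far below the rest (log2 fold change 0.40 with an SE of 0.246, adjusted p = 0.288 in edgeR). Hdac7 (-0.46, adjusted p = 0.142 in edgeR), Hdac4 (0.18) and Hdac5 (0.00) did not pass. The group had 5 calls without control replicate 1, with Hdac6 higher and Hdac7 lower. It had 2 without control replicate 2, 3 without control replicate 3 and 1 without each knockdown replicate. Of all genes, 52.1, 12.5 and 10.4% were called without control replicates 1, 2 and 3. Without a knockdown replicate the share was 4.37 to 5.93%.

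Of the 7 sirtuin genes 4 fell, none rose, and the median log2 fold change was -0.63. Over all genes tested 10.7% fell and 9.92% rose. Sirt1, the nuclear deacetylase of histones, p53 and PGC-1alpha, had 28.8, 36.3 and 34.2 CPM in the controls and 17.4, 17.0 and 16.9 in the knockdown libraries. The knockdown libraries were nearly identical and well below every control (log2 fold change -0.95 with an SE of 0.122, adjusted p = 0.0055 in edgeR). Sirt2, a mainly cytoplasmic deacetylase and the most abundant sirtuin at 10.1 ± 0.737 FPKM in the controls and 6.42 ± 0.550 in the knockdown (SD, n = 3), had 63.1, 68.1 and 58.5 CPM against 40.8, 43.5 and 36.7. No libraries overlapped (log2 fold change -0.65 with an SE of 0.109, adjusted p = 0.0106 in edgeR). The call of Sirt2 was lost without knockdown replicate 1 or 3.

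Sirt6, a chromatin-bound deacetylase, had 18.4, 17.4 and 18.5 CPM in the controls and 12.9, 11.1 and 10.7 in the knockdown libraries, which did not overlap (log2 fold change -0.65 with an SE of 0.124, adjusted p = 0.0155 in edgeR). Sirt7, found in the nucleolus, had 20.7, 19.2 and 21.6 CPM against 15.3, 14.2 and 15.7 (log2 fold change -0.44 with an SE of 0.111, adjusted p = 0.0345 in edgeR). Its groups did not overlap either, and up to 3.46% of its exonic length is shared with Mafg and a microRNA gene on the same strand. The Sirt7 call was lost without each library other than control replicate 1. That of Sirt6 was lost without control replicate 3 or knockdown replicate 2 or 3. The 3 members that did not pass, Sirt3 (-0.04), Sirt4 (-0.63, adjusted p = 0.15 in edgeR) and Sirt5 (-0.08), encode the mitochondrial sirtuins. Whether the mitochondrial and the other sirtuins differ in response was not tested. Sirt4 had 10.5 CPM in control replicate 1 against 5.29 and 6.63 in the other controls and 4.42 to 5.01 in the knockdown libraries. The 4 sirtuin calls stayed 4 without control replicate 1 and became 3 and 2 without control replicates 2 and 3. Without knockdown replicates 1, 2 and 3 they became 2, 2 and 1. In the same order these fits called 52.1, 12.5, 10.4, 5.93, 4.91 and 4.37% of all genes.

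None of the 3 DNA methyltransferase genes was called in edgeR, DESeq2 or voom, and 0 had an unadjusted p under 0.05. Dnmt1, the maintenance methyltransferase, was the most abundant of all the members per length, at 40.5 ± 10.1 FPKM in the controls and 45.2 ± 0.685 in the knockdown (SD, n = 3). It had 182.1, 295.6 and 297.3 CPM in the controls and 285.0, 296.3 and 291.4 in the knockdown libraries. Apart from control replicate 1, its libraries were nearly level (log2 fold change 0.17 with an SE of 0.191, adjusted p = 0.566 in edgeR), and without that library the value was -0.03. The de novo enzymes Dnmt3a (0.04, SE 0.160, adjusted p = 0.887 in edgeR) and Dnmt3b (0.39, SE 0.294, adjusted p = 0.384 in edgeR) did not pass either.

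Neither of the 2 tested TET genes passed in edgeR or DESeq2, while 2 had an unadjusted p under 0.05 and voom called 2. These genes encode the dioxygenases that start removal of cytosine methylation. Tet1 had only 2 counts, both in control replicate 1. Tet3 had 50.8, 31.3 and 29.0 CPM in the controls and 57.5, 49.7 and 55.1 in the knockdown libraries. Control replicate 1 reached into the knockdown range (log2 fold change 0.55 with an SE of 0.221, adjusted p = 0.126 in edgeR). Without it Tet3 was called at 0.84 and Tet2 at 0.56 (adjusted p = 0.00032 and 0.0174). Tet2 had 30.4, 23.9 and 23.8 CPM against 35.9, 28.6 and 41.0, which overlapped, with a log2 fold change of 0.44 over all libraries (adjusted p = 0.121 in edgeR).

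Control replicate 1 deviated for many of these genes. It lay below all 5 other libraries for 39 of the 72 tested members (54.2%, against 30.1% of all genes) and above them for 7. Its median deviation from the other controls was -0.29 on the log2 scale over the members and 0.01 over all genes. The members together took 0.439% of the counts in control replicate 1, 0.563 and 0.564% in the other controls and 0.619 to 0.623% in the knockdown libraries. Across the 71 members with an annotated exonic length, the deviation and the length had a Spearman correlation of -0.35, and of -0.30 across 11939 genes, within the same libraries. Leaving the library out added 20 calls, 10 higher and 10 lower. None of the 20 added genes changed sign.

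**Figure D4:**
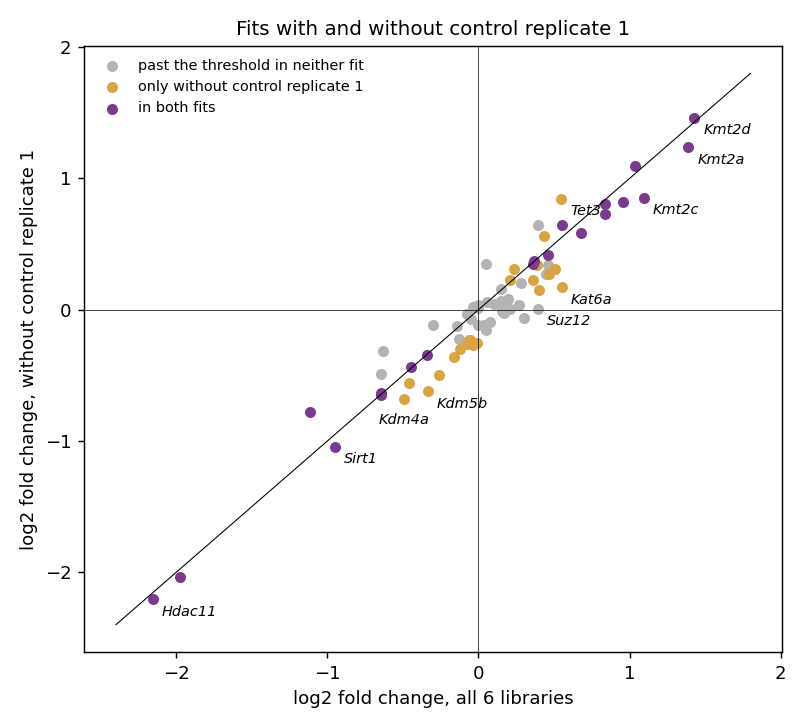
Log2 fold change of each tested enzyme gene with all 6 libraries (horizontal axis) and without control replicate 1 (vertical axis), on the same scale. Genes called with all libraries keep their sign, and the genes called only without control replicate 1 include Kdm5b, Kdm4a and Tet3.

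Ratios of close relatives in the same library were compared for 8 pairs. Besides Ezh2 to Ezh1, the ratio of Kat2a to Kat2b was lower in all knockdown libraries, at 1.846, 1.702 and 1.778 in the controls and 1.61, 1.52 and 1.65 in the knockdown. The ratio of Kdm5a to Kdm5b was higher in all of them, at 0.936, 0.783 and 0.764 against 1.03, 0.953 and 0.985. These are 3 pairs without overlap, each at the smallest exact permutation p of 0.1 (adjusted p = 0.267). The other 5 pairs overlapped, with log2 differences of -0.36 for Dnmt3a to Dnmt3b, -0.27 for Kmt2c to Kmt2d, -0.16 for Tet2 to Tet3, -0.08 for Kdm6a to Kdm6b and 0.23 for Hdac1 to Hdac2. No pair passed after adjustment.

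Per length and over all 6 libraries, the most abundant members after Dnmt1 were Setd8, Prmt1 and Kat5. The median level of the tested members was 7.37 FPKM over all 6 libraries, against 5.70 over all tested genes. Of the 8 members that could not be tested, the pseudogenes Kat6b-ps1 and Kat6b-ps2, the antisense gene Kdm6bos, Kdm5d and Prmt8 had no count in any library, which allows up to 0.185 to 0.251 CPM per library. Kdm4d had 1 count and Kdm4dl, a pseudogene, had 17 over the 6 libraries. The pseudogene Kat2b-ps was tested and not called (log2 fold change 0.30, adjusted p = 0.726 in edgeR). Its reads may be shared with Kat2b.

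Genes that work with these enzymes but are not among them were taken as 7 further lists. Of their 120 tested genes 14 rose and 9 fell, a share of 19.2% against 20.6% of all genes. Of 11 partners in the H3K4 methyltransferase complexes 3 rose, Ncoa6 (0.77), a subunit that accompanies KMT2C and KMT2D, Wdr5 (0.39), a core subunit, and Paxip1 (0.55), while Ash2l, another core subunit named after its values were seen, fell by 0.34. The median of that list was -0.17. Of 22 other histone methyltransferase genes 3 rose and none fell: Nsd1 (0.80) and Whsc1 (0.49), which encode H3K36 enzymes, and Dot1l (0.79), which encodes the H3K79 enzyme.

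The scaffolds of deacetylases and LSD1 included the partner gene with the smallest p. Rcor2, an LSD1 corepressor, had 26.7, 27.8 and 24.3 CPM in the controls and 8.72, 7.35 and 8.42 in the knockdown libraries. The groups were far apart (log2 fold change -1.69 with an SE of 0.126, adjusted p = 0.0016 in edgeR). Sap30, a SIN3 subunit, also fell (-0.67). In all, 2 of 22 corepressor genes rose and 4 fell. Of 21 further polycomb genes 2 rose and 3 fell, among them Jarid2, a PRC2 cofactor (0.74), and Cbx2 (-0.87) and Cbx8 (-0.82), readers of methylated H3K27. Of 26 acetyltransferase partners 2 rose, Ing5 (0.53) and Crebbp (0.32), the gene of the coactivator CBP, and Tada3 fell (-0.70). Of 9 DNA methylation partners 2 rose and none fell, among them Zbtb38 (0.78), which encodes a zinc finger protein that binds methylated DNA. None of 9 further JmjC domain genes passed in edgeR, 1 had an unadjusted p under 0.05, and DESeq2 and voom called 1. Of these, Phf2 had a log2 fold change of 0.50 (adjusted p = 0.0556 in edgeR) and Jmjd6 of -0.18.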

How the data were processed

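RNA of 6 Hepa1-6 libraries, 3 control and 3 knockdown as titled, was analysed. The authors deposited whole-number read counts per gene without normalization, and FPKM values. Tools in the submitters' processing notes are HISAT2 2.0.5 and featureCounts 1.5.0-p3, with build mm10, their roles unstated. For the annotation and the strand setting, no statement is given in the sources used here. FPKM served only to compare levels between genes.

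Counts were filtered by filterByExpr, scaled by TMM and tested with edgeR 4.0.16 (quasi-likelihood, group as the only term, R 4.3.3), at a Benjamini-Hochberg adjusted, two-sided p of 0.05 over 11975 genes. SE is the log2 fold change divided by the square root of F. The procedure was tested on simulated data. Among 11975 genes there, it called 2.99% of the 67 set to differ 1.5-fold, 32.8% of 67 at 2-fold and 90.9% of 66 at 4-fold. Of its calls there, 6.67% were false. A gene that did not pass may therefore still differ between the groups. Whether the same rates hold in the measured libraries, where 20.6% of all genes were called, was not tested. Depth was 11933736 to 16248346 counts, and floors cover counting error only. Alternatives were scaling by RLE or the upper quartile, a minimum of 1 count as the only filter, DESeq2 1.42.0, voom with sample quality weights in limma 3.58.1, a replicate block, mitochondrial genes left out and each library left out. Ratios were tested by exact permutation.

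Identifiers were matched to GENCODE M21, where 79 of 80 members were found, 65 with the same start and end. Prmt1 was not matched by identifier. Overlaps were summed and are upper bounds. Promoter windows of RefSeq on GRCm38.p6 were matched by symbol for 63 members. Members and lists were chosen with earlier results of these data known. All members past the threshold were named, with the most abundant member by FPKM of each role, the uncalled member with the largest change, and up to 3 called genes with the smallest p per partner list (the 2 most abundant where none passed). Other members are named to account for the whole set, after their values were seen. Some genes that the rule selects are not reported here.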

Additional observations from a re-analysis of the deposited data

How the results depend on the processing

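All 20 calls kept their direction under every alternative and left-out library, and 20 were kept under RLE scaling, DESeq2 and voom with quality weights. Upper-quartile scaling lost Kat2b, leaving mitochondrial genes out lost Hdac10, and without a filter beyond 1 count Setd1a, Eed, Sirt7, Kat2b and Hdac10 were lost, which left 15, 5 of the members being lower, 0 acetyltransferases and 0 PRC2 genes, with 2009 of 18294 genes called (5.52% of all genes lower). Upper-quartile scaling left 0 acetyltransferases. DESeq2, with 27.0% of all genes called, had 2 acetyltransferases and 2 arginine methyltransferases, and leaving mitochondrial genes out also gave 2 of the latter. Voom with quality weights called 6287 genes (52.5%) and 37 members, 20 higher and 17 lower, among them 2 acetyltransferases, 9 demethylases, 3 arginine methyltransferases, 2 PRC2 genes and 2 TET genes, with Dnmt1 reversed at -0.0059. Deviations of same-numbered libraries had r = 0.001, 0.017 and 0.048 across genes, and those of differently numbered libraries -0.042 to 0.015. With 3 libraries a group, these values cannot tell whether the numbers mark pairs. With a replicate block 987 genes (8.24%) and 10 members were called, 7 higher and 3 lower: 3 H3K4 methyltransferases, 2 sirtuins, 1 class II or IV deacetylase, 0 acetyltransferases, 0 arginine methyltransferases and 0 PRC2 genes.

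Leaving out each library gave 534 to 6313 genes, 7 to 40 members (5 to 22 higher, 2 to 18 lower), 2 to 6 H3K4 methyltransferases, 0 to 10 demethylases, 1 to 4 sirtuins, 1 to 5 class II or IV deacetylases, 0 to 3 acetyltransferases, 0 to 3 arginine methyltransferases, 0 to 2 PRC2 genes and 0 to 2 TET genes, always the most without control replicate 1. Some uncalled members reversed, among them Dnmt1 without control replicate 1 (-0.0278) and Prmt1 without control replicate 2 (0.0427). Their ranges were -0.03 to 0.28 and -0.30 to 0.04. Others included Kmt2e (-0.16 to 0.18), Dnmt3a (-0.12 to 0.13), Kdm5a (-0.27 to 0.10) and Hdac3 (-0.13 to 0.35). The causes of these differences were not tested. Class I deacetylases and DNA methyltransferases had 0 calls in every fit run. With 3 libraries a group, ratios could not reach an exact p below 0.1, and Hdac9 and the untested members were limited by their low counts.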
